A study of Mus musculus with 6 samples.

Results

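RNA levels of the enzymes of the mitochondrial citric acid cycle were measured in osteoclast cultures with and without overexpression of HES1, a Notch target gene and transcriptional repressor. The 9 genes described were Cs, Idh3a, Idh3b, Idh3g, Ogdh, Sucla2, Suclg1, Fh1 and Mdh2, found by matching Ensembl mouse identifiers to symbols, and all 9 were present among the 55573 genes counted in every library. Bone marrow-derived macrophages (BMMs) came from male mice 10 weeks old. They received RANKL (10 ng/ml) and M-CSF (30 ng/ml) until day 4, which turn these precursors into osteoclasts, the multinucleated cells that resorb bone. There were 3 control cultures and 3 Rosa-Hes1 cultures. Rosa-Hes1 cells carried Cre inserted at Ctsk, a gene switched on during osteoclast differentiation, and a Rosa26 allele from which Cre removes a loxP-flanked STOP cassette so that HES1 is made. The labels call the controls wild type, whereas the study's methods describe littermates with the Rosa[STOP]Hes1 allele and no Cre, so that Cre itself, its insertion at Ctsk and the overexpressed HES1 cannot be told apart in this comparison.

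The citric acid cycle oxidizes the acetyl group of acetyl-CoA to carbon dioxide in the mitochondrial matrix and passes the electrons to the respiratory chain as NADH and reduced flavin. Citrate synthase (Cs) joins acetyl-CoA to oxaloacetate, isocitrate dehydrogenase 3 (Idh3a, Idh3b, Idh3g) and the 2-oxoglutarate dehydrogenase complex (whose first component is Ogdh) each release carbon dioxide, succinyl-CoA ligase (Sucla2, Suclg1) makes ATP or GTP, and fumarase (Fh1) and malate dehydrogenase (Mdh2) regenerate oxaloacetate. Osteoclasts are known to be rich in mitochondria, and mitochondrial genes are induced as BMMs differentiate into them.

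Total gene counts were 13038362 to 15956331 per library, and a single member gene received 1587 to 13686 counts in a library. Values are given as normalised read counts, in CPM (reads divided by the TMM-normalised size of the library), and a gene was called when the edgeR quasi-likelihood test gave a Benjamini-Hochberg adjusted p under 0.05 over the 16954 genes tested. The targeted gene, Hes1, was detected at 0.517, 0.557 and 0.296 CPM in control cultures, against 4.95, 4.83 and 6.91 CPM where HES1 was overexpressed, an 11.8-fold difference (adjusted p = 0.00477). The label of the cultures was checked against marker genes. Among 10 osteoclast markers, 9 were called higher in Rosa-Hes1. The exception was Ctsk (log2 fold change 0.08), which carries the Cre insertion in Rosa-Hes1 cells, so that its level is not a like comparison between the groups. The summed level of the list was 10755 to 13809.7 CPM in controls and 17049.8 to 20015 CPM in Rosa-Hes1 libraries. The 4 with the smallest adjusted p were the integrin chain Itgb3 (log2 fold change 0.78 ± 0.10 SE), the proton pump subunit Atp6v0d2 (0.72 ± 0.10), the acid phosphatase Acp5 (0.74 ± 0.11) and the collagenase Mmp9 (0.73 ± 0.11). Among 10 macrophage markers, Cd68 was called higher (0.52 ± 0.09) and the chemokine receptor Cx3cr1 lower (−0.50 ± 0.12), with sums of 4677 to 5770.4 CPM and 4958 to 5950.2 CPM. Osteoclast markers called numbered 2 and 5 when Rosa-Hes1 replicate 1 or 3 was left out, and 6 and 4 when control replicate 1 or 3 was. Without a filter on low counts they numbered 5. The Cd68 call was lost without control replicate 1 (adjusted p = 0.0605) or Rosa-Hes1 replicates 1 (0.0693) or 3 (0.0511), and the Cx3cr1 call in every fit with a library left out (0.0556 to 0.133) but the one lacking control replicate 2 (0.0465), and by limma-voom (0.0512). Of 17 markers of other cell types, 11 were tested and edgeR called 0, with 1 at an unadjusted p under 0.05. DESeq2 and limma-voom also called 0, and Cd3e, Cd3g and Mcpt4 were at 0 in all 6 libraries. The list summed to 248 to 603 CPM in controls and 192 to 454 CPM in Rosa-Hes1, mostly from Col1a1, Col1a2 and S100a8. Col1a1 varied within both groups, at 244, 86.2 and 85.9 CPM in controls and 132, 188 and 53.0 CPM in Rosa-Hes1. Its log2 fold change of −0.15 had an interval of −1.83 to 1.53. Its highest libraries, control replicate 1 and Rosa-Hes1 replicate 2, were also those most often lowest of their groups for the 9 cycle genes. A link was not tested. The cycle genes were therefore compared between cultures that also differed in osteoclast marker level. RNA came from whole cultures, in which more or fewer cells of a type and more or less RNA per cell cannot be told apart. The part of the osteoclast marker difference in the results below was not tested.

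The start regions are shown for the members called in these data, although all 9 members shared the higher direction. They were searched because HES1 belongs to the basic helix-loop-helix repressors, which bind short CACGTG-like letters. RefSeq promoters (GRCm38.p6, 250 bases before to 50 bases after each start) were found for 8 of the 9 genes, Idh3a being the one not matched, with 13 starts in all because Ogdh has 6. Matches to 6 motifs were searched on both strands: the E box CACGTG, the class C site CACGCG, the N box CACNAG, the NRF1 core GCGCNTGCG, the estrogen-related receptor (ERR) element AAGGTCA and the ETS core CCGGAAG. The first 280 bases of each window are printed 5′ to 3′ with motif matches in capitals, and for Ogdh the start with the most kinds of match (an E box, an N box and a ERR element) is shown.
Mdh2 (chr5:135778399-135778678, plus strand): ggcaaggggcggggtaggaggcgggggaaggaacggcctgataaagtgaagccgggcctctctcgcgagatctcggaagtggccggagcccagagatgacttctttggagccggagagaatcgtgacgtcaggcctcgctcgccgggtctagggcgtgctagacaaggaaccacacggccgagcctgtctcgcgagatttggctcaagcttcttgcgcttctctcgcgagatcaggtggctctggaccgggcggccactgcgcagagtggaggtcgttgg
Cs (chr10:128337477-128337756, plus strand): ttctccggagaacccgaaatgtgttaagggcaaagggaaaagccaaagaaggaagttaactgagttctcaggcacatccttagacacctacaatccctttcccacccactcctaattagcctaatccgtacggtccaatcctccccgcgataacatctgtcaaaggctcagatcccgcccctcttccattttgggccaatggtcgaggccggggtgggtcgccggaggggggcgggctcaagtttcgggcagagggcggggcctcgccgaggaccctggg
Idh3b (chr2:130284422-130284701, minus strand): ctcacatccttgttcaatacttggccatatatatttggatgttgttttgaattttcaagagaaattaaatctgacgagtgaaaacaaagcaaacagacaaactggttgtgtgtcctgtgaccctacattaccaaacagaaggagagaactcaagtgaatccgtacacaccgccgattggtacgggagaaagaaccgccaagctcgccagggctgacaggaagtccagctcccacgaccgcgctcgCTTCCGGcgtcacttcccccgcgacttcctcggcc
Idh3g (chrX:73786868-73787147, minus strand): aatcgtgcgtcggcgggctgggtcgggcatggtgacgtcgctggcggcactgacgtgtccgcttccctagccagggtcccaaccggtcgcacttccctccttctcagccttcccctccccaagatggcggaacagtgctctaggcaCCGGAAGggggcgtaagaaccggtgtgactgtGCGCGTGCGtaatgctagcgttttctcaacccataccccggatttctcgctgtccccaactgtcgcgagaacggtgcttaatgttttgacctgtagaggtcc
Ogdh (chr11:6291920-6292199, plus strand): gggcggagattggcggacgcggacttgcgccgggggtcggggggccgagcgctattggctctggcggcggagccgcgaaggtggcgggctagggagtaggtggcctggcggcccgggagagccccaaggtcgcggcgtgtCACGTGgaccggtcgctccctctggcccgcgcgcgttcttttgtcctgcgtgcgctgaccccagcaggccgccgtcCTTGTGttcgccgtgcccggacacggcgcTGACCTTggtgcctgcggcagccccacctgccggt
Mdh2 and Cs, the members with the largest rises, held 0 matches to the 6 motifs in their windows. Idh3b held an ETS core beginning 5 bases before the start. Idh3g held an ETS core, and a class C site that overlaps its NRF1 core. Counted by gene, with the starts of Ogdh pooled, the E box was found in 1 of 8 (Ogdh), the class C site in 2 (Idh3g, Suclg1), the N box in 3 (Ogdh, Sucla2, Fh1), the NRF1 core in 3 (Idh3g, Ogdh, Sucla2), the ERR element in 1 (Ogdh) and the ETS core in 2 (Idh3b, Idh3g). Counted by promoter, they were found in 3, 2, 4, 4, 1 and 2 of the 13, in the same order. The 13 windows are not independent, because several windows of Ogdh overlap. The E box and the NRF1 core of Ogdh starts 5 and 6 are the same sites counted again. Of all 32851 promoters, 7.15% held the E box, 9.27% the class C site, 42.5% the N box, 6.31% the NRF1 core, 4.72% the ERR element and 8.86% the ETS core. These shares are per promoter, so the counts by gene, with the starts of Ogdh pooled, are not a like comparison. An excess of any motif was not tested. A match describes letters only, and the counts did not resolve which start was used.

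All 9 genes had a higher level in every Rosa-Hes1 library than in any control library, and 5 were called higher (Cs, Idh3b, Idh3g, Ogdh and Mdh2) and 0 lower. Of all tested genes, 5.85% were called higher and 2.41% lower, 16.6% had all 3 Rosa-Hes1 libraries above all 3 controls, and 14.5% had the opposite arrangement. The differences were small. The median log2 fold change of the 9 genes was 0.29, from 0.17 to 0.52, beside −0.01 over all tested genes. The remaining 4 (Idh3a, Sucla2, Suclg1, Fh1) had unadjusted p-values under 0.05 and adjusted p-values above it. Summed over the 9 genes, the level was 2694, 3065 and 2878 CPM in the controls, against 3758, 3619 and 3744 CPM in Rosa-Hes1, or 2879 ± 185 and 3707 ± 76.2 CPM (SD, n = 3 each). The sum of the Rosa-Hes1 group was 1.29-fold that of the controls.

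**Figure D1:**
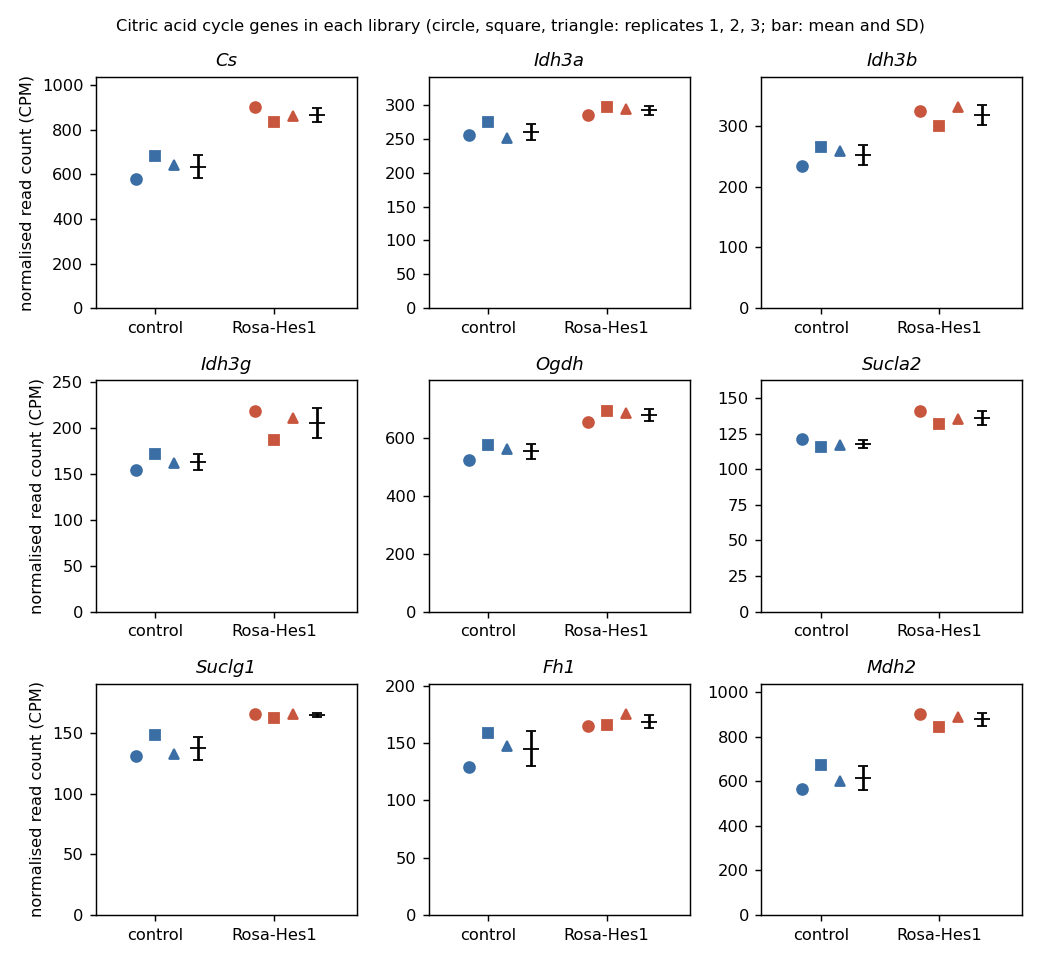
Normalised read count (CPM, linear axes from 0) of each of the 9 citric acid cycle genes in the 3 control (blue) and 3 Rosa-Hes1 (red) libraries, with the group mean and SD in black. In each panel the lowest red point lies above the highest blue point, with the widest gap for Mdh2 (25.6%) and the narrowest for Fh1 (3.55%).

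Cs (ENSMUSG00000005683, chr10:128337734-128362479, plus strand, GRCm38) encodes citrate synthase, the entry step of the cycle and a common marker enzyme of mitochondrial content. It read 579, 683 and 642 CPM in control replicates 1 to 3 and 899.9, 835 and 859 CPM in Rosa-Hes1 replicates 1 to 3. The lowest Rosa-Hes1 library was 22.2% above the highest control. The means were 634 ± 52.6 and 865 ± 32.7 CPM, a log2 fold change of 0.45 ± 0.08 (SE; 95% interval 0.27 to 0.62; adjusted p = 0.0139). Without Rosa-Hes1 replicate 1 the adjusted p was 0.0663, and without control replicate 3 it was 0.0524.

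The 3 subunits of isocitrate dehydrogenase 3, the NAD-dependent enzyme of the cycle, did not all pass the test. Idh3a encodes the catalytic alpha subunit (ENSMUSG00000032279, chr9:54586334-54604661, plus strand). Its levels were 255, 274 and 252 CPM in controls and 285, 296 and 294 CPM in Rosa-Hes1, a log2 fold change of 0.17 ± 0.06 (interval 0.02 to 0.31; adjusted p = 0.136). The groups were separated by 3.94% of the highest control value. Idh3b encodes the beta subunit (ENSMUSG00000027406, chr2:130279309-130284547, minus strand), and its exons overlap those of Nop56 on the opposite strand by 5 bases. Its levels of 234, 265 and 258 CPM in controls compared with 324, 299 and 330.3 CPM in Rosa-Hes1 (0.33 ± 0.07, interval 0.17 to 0.50, adjusted p = 0.029). Idh3g encodes the gamma subunit (ENSMUSG00000002010, chrX:73778963-73786897, minus strand), which with beta regulates the enzyme. It was measured at 154, 172 and 162 CPM in controls and 219, 187 and 211 CPM in Rosa-Hes1 (0.34 ± 0.08, interval 0.16 to 0.52, adjusted p = 0.0348). In both called subunits Rosa-Hes1 replicate 2 was the lowest of its group and control replicate 2 the highest of its own. The calls of Idh3b and Idh3g were kept without Rosa-Hes1 replicate 2 (adjusted p = 0.0113 and 0.0078) and lost when any other single library was left out, with adjusted p-values up to 0.113 and 0.137.

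Ogdh encodes the E1 component of the 2-oxoglutarate dehydrogenase complex, which converts 2-oxoglutarate to succinyl-CoA (ENSMUSG00000020456, chr11:6291633-6356642, plus strand). It read 523, 575 and 563 CPM in controls and 656, 695 and 685 CPM in Rosa-Hes1. Here Rosa-Hes1 replicate 2 was the highest library. The log2 fold change was 0.29 ± 0.07 (interval 0.14 to 0.44; adjusted p = 0.0311), and it too passed without Rosa-Hes1 replicate 2 (0.0323) but not when any other single library was left out (up to 0.108).

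Succinyl-CoA ligase pairs the alpha subunit encoded by Suclg1 with a beta subunit that makes ATP (Sucla2) or GTP (Suclg2). Sucla2 (ENSMUSG00000022110, chr14:73525319-73596142, plus strand) was at 121, 116 and 117 CPM in controls and 141, 132 and 135 CPM in Rosa-Hes1, with a log2 fold change of 0.21 ± 0.06 (interval 0.07 to 0.35; adjusted p = 0.0761). Suclg1 (ENSMUSG00000052738, chr6:73248382-73276911, plus strand) was at 131, 149 and 133 CPM and at 166, 163 and 166 CPM, a log2 fold change of 0.26 ± 0.07 (interval 0.10 to 0.41; adjusted p = 0.0539). Neither passed the threshold, although the groups did not overlap in either gene. Suclg1 was close to it: DESeq2 gave an adjusted p of 0.023 and limma-voom 0.0444, and it was called in 7 of 13 other ways of analysis. In 2 of these 7 a library was left out, Rosa-Hes1 replicate 2 or control replicate 2, the lowest adjusted p of the fits with a library left out being 0.0421.

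Fh1 encodes fumarase, which hydrates fumarate to malate in the matrix and is also found in the cytosol (ENSMUSG00000026526, chr1:175600374-175625635, minus strand). Its levels were 129, 159 and 147 CPM in controls and 165, 166 and 175 CPM in Rosa-Hes1. Control replicate 2 lay close to the Rosa-Hes1 libraries, and the control coefficient of variation of 10.4% was the largest among the 9 genes. The log2 fold change was 0.22 ± 0.08 (interval 0.03 to 0.41; adjusted p = 0.148).

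Mdh2 encodes the matrix malate dehydrogenase, which closes the cycle and takes part in the malate-aspartate shuttle (ENSMUSG00000019179, chr5:135778480-135790398, plus strand). It read 567, 673 and 603 CPM in controls and 903, 845 and 887 CPM in Rosa-Hes1. Its rise was the largest among the 9 genes, and the lowest Rosa-Hes1 library exceeded the highest control by 25.6%. The means were 614 ± 53.5 and 878 ± 29.8 CPM, 1.43-fold higher (log2 fold change 0.52 ± 0.08; interval 0.34 to 0.69; adjusted p = 0.00898). Mdh2 passed in all 13 other ways of analysis, those with a library left out included, where the adjusted p reached 0.0489.

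The number of the 9 genes called depended on single libraries. It was 2, 3 and 1 without control replicates 1, 2 and 3, and 1, 6 and 2 without Rosa-Hes1 replicates 1, 2 and 3. The calls over all genes moved too, from 1399 to between 265 and 2646, the extremes being the fits lacking Rosa-Hes1 replicates 1 and 2 respectively. Rosa-Hes1 replicate 2 lay nearest to the controls on the first principal component of the libraries (3.13, against 20.4 and 20.5 for replicates 1 and 3 and −21.8, −10.6 and −11.6 for the controls). The log2 fold change of each of the 9 genes was above 0 in all 13 other ways of analysis, and the median of the 9 was 0.25 to 0.32 with a library left out.

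**Figure D2:**
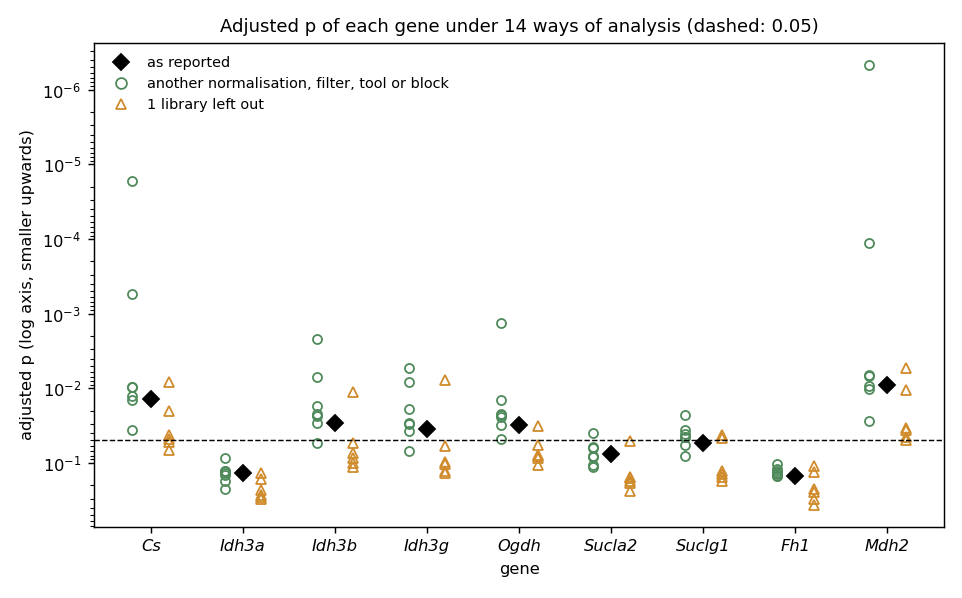
Adjusted p (log axis, smaller values upwards) of each of the 9 genes as reported (diamonds), under another normalisation, filter, tool or replicate block (circles), and with 1 library left out (triangles). Mdh2 stays above the dashed line at 0.05 throughout, while Idh3a and Fh1 stay below it throughout.

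In the same fit, 7 further subunits of the cycle's enzymes were examined, and 3 were called higher and 0 lower, with a median log2 fold change of 0.32. Of succinate dehydrogenase, which is also complex II of the respiratory chain, Sdha (0.45 ± 0.09; adjusted p = 0.0201), Sdhb (0.43 ± 0.10; 0.0298) and Sdhc (0.36 ± 0.07; 0.0242) were called. The membrane anchor Sdhd was not (0.32 ± 0.09; adjusted p = 0.0574), nor were the 2-oxoglutarate dehydrogenase components Dlst (0.20 ± 0.07; 0.128) and Dld (0.27 ± 0.08; 0.0797). Suclg2, the GTP-forming beta subunit, was the exception among these 16 subunits, with overlapping groups of 59.0, 64.0 and 62.4 CPM and 73.3, 57.9 and 59.7 CPM and an interval of −0.18 to 0.27 around a log2 fold change of 0.04. Sdhd was called by DESeq2 (0.016), limma-voom (0.0384), filterByExpr (0.0447), upper quartile scaling (0.044) and without a filter (0.0159), and Dld by DESeq2 (0.0397) and without a filter (0.0405), so that 5 of the 7 were called by DESeq2 and without a filter. The number called by edgeR among the 7 was 0, 2 and 0 without control replicates 1, 2 and 3, and 0, 5 and 0 without Rosa-Hes1 replicates 1, 2 and 3.

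**Figure D3:**
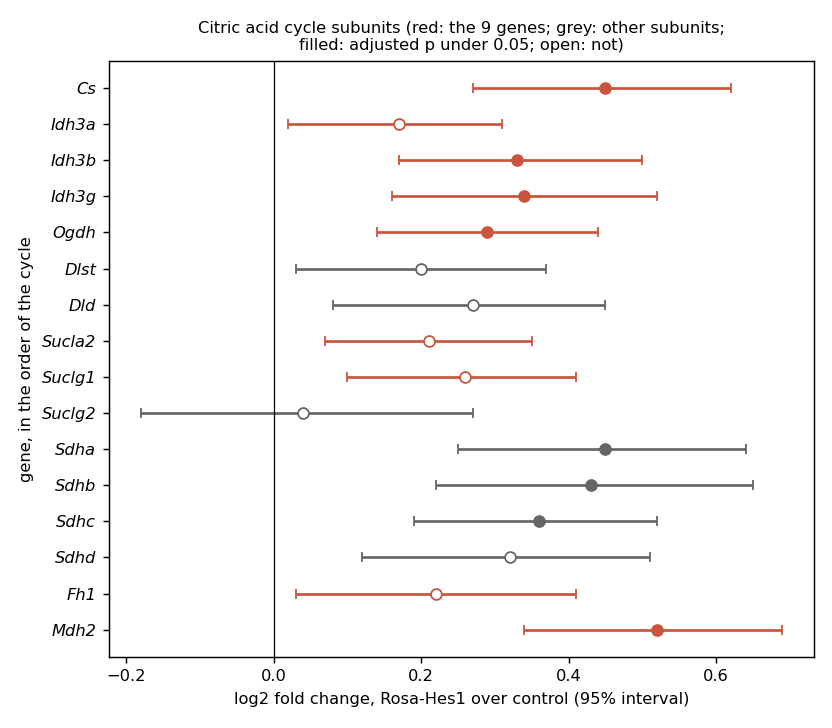
Log2 fold change of Rosa-Hes1 over control, with its 95% interval, for 16 subunits in the order of the cycle; red marks the 9 genes, grey the other subunits, and filled points an adjusted p under 0.05. All 16 points lie above 0, from 0.04 (Suclg2) to 0.52 (Mdh2), and the interval of Suclg2 alone crosses 0.

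Levels were compared between genes per kilobase of exon. Mdh2 was highest at 209.5 CPM per kb (mean of 6 libraries), followed by Cs at 129.7, Ogdh at 113, Idh3b at 83.3, Idh3g at 68.2, Idh3a at 54.4, Fh1 at 46.2, Suclg1 at 32.8 and Sucla2 at 31.9. The top and bottom thus differed 6.57-fold. Each gene exceeded the next in the order in 6 of 6 libraries, except that Suclg1 exceeded Sucla2 in 4 of 6 (1 control and 3 Rosa-Hes1). With the longest transcript as the length in place of the union of exons, the range was 8.5-fold, Idh3a stood above Idh3g, and Fh1, Sucla2 and Suclg1 were not separated in every library. All 9 genes were among the more abundant, at percentiles 88.7 (Sucla2) to 98.9 (Mdh2) of the tested genes per kilobase of exon.

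**Figure D4:**
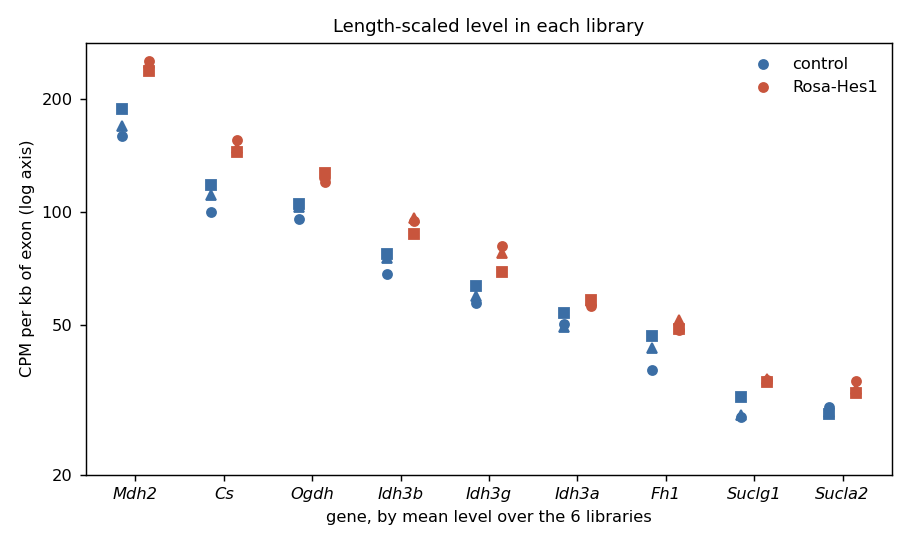
Level per kilobase of exon (CPM per kb, log axis) of the 9 genes in each control (blue) and Rosa-Hes1 (red) library, ordered by the mean. The levels run from 31.9 for Sucla2 to 209.5 for Mdh2, and the points of Suclg1 and Sucla2 overlap.

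Ratios of CPM per kb within each library were taken for 13 pairs. These were subunits of 1 enzyme, neighbours in the cycle, Mdh2 over its cytosolic counterpart Mdh1, and Mdh2 over Idh3a. They were compared by a two-sided exact permutation test that cannot go below 0.1 with 3 libraries against 3. No ratio could therefore pass, and the values are given as description. Mdh2 over Idh3a pairs the largest with the smallest log2 fold change of the 9 genes, so its difference restates those values. The ratio was 3.17, 3.50 and 3.41 in controls and 4.51, 4.06 and 4.29 in Rosa-Hes1 (exact p = 0.1, 0.289 after adjustment over the 13). Mdh2 over Fh1, consecutive enzymes, was 4.04 ± 0.145 and 4.96 ± 0.226 (SD, n = 3 each), again at exact p = 0.1 and 0.289 adjusted. In both pairs the groups did not overlap, nor did they in Mdh2 over Cs and Sdha over Fh1. Among the isocitrate dehydrogenase subunits, Idh3b over Idh3g was 1.22 ± 0.0338 and 1.22 ± 0.0477 (exact p = 0.9), while Idh3a over Idh3b was 0.697 ± 0.0394 and 0.620 ± 0.0414 with overlapping groups (exact p = 0.2, 0.289 adjusted). Sucla2 over Suclg2, the ATP-forming over the GTP-forming beta subunit, was 2.22 ± 0.145 and 2.50 ± 0.231, also overlapping (exact p = 0.2, 0.289 adjusted).

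Genes that feed or drain the cycle were examined as lists. Of 14 genes of pyruvate entry, 4 were called higher and 0 lower, with a median log2 fold change of 0.26: the pyruvate dehydrogenase subunits Pdha1 (0.54 ± 0.09; adjusted p = 0.0118), Pdhb (0.45 ± 0.09; 0.0201) and Dlat (0.27 ± 0.06; 0.033), and the mitochondrial pyruvate carrier subunit Mpc2 (0.43 ± 0.09; 0.0239). Pdk1, a kinase that inhibits pyruvate dehydrogenase, was singled out after its values were seen, because it read 86.8, 118 and 97.4 CPM in controls and 299, 94.4 and 243 CPM in Rosa-Hes1 (adjusted p = 0.213). Rosa-Hes1 replicate 2 was within the controls and the others were not, and without it the adjusted p was 0.00231. Of 11 carriers and enzymes outside the cycle's matrix pathway, 4 were called higher: cytosolic malate dehydrogenase Mdh1 (0.58 ± 0.09; adjusted p = 0.0113), the cytosolic aconitase Aco1 (0.50 ± 0.08; 0.011), the aspartate-glutamate carrier Slc25a13 (0.54 ± 0.09; 0.0142) and cytosolic aspartate aminotransferase Got1 (0.43 ± 0.08; 0.017). Without Rosa-Hes1 replicate 1, 0 genes of either list were called by edgeR. Without Rosa-Hes1 replicate 2 there were 6 of the pyruvate list and 7 of the carriers. Leaving out any other library gave 1 of the pyruvate list, or 3 where it was control replicate 2. The fit lacking control replicate 1 called 2 carriers higher and 1 lower, the dicarboxylate carrier Slc25a10 (adjusted p = 0.0436).

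The list for entry of glutamine and glutamate carbon had 3 of 7 genes with a log2 fold change above 0. Among them 1 was called higher, the alanine aminotransferase Gpt2 (18.7, 22.7 and 20.9 CPM in controls; 31.3, 25.2 and 28.0 CPM in Rosa-Hes1; log2 fold change 0.44 ± 0.11; adjusted p = 0.0489), 0 lower, and the median was −0.03. Glud1, glutamate dehydrogenase, was at 468, 483 and 519 CPM and at 438, 419.7 and 454 CPM (−0.16 ± 0.07; adjusted p = 0.168). The glutamate carrier Slc25a22 was at 64.7, 58.6 and 62.1 CPM and at 38.5, 52.4 and 47.5 CPM (−0.42 ± 0.11; adjusted p = 0.0545). The carrier was called lower by DESeq2 (0.0116), by limma-voom (0.0269), without a filter on low counts (0.0105) and without Rosa-Hes1 replicate 2 (0.0164). Both genes were named after their values were seen. Of 7 side reactions of the matrix, 1 was called higher, the malic enzyme Me2 (0.38 ± 0.10; adjusted p = 0.0492), with a median of 0.11. Nnt has 2 identifiers under its symbol in the annotation, and the one used, with the more counts, was at 0.222 to 0.495 CPM. With DESeq2 size factors neither Gpt2 (0.0512) nor Me2 (0.0535) was called, which left 0 by edgeR in both lists. Among the fits with 1 library left out, Gpt2 and Me2 were called only in the one lacking Rosa-Hes1 replicate 2 (adjusted p = 0.0165 and 0.00677), and otherwise had adjusted p-values of 0.07 to 0.171 and 0.0954 to 0.158.

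Other mitochondrial genes gave a comparison within the same organelle: outer membrane channels, import and chaperone proteins, the matrix protease Lonp1 and the mitochondrial DNA-binding factor Tfam. Of these 12 genes, 2 were called higher and 0 lower, the outer membrane channel Vdac1 (0.34 ± 0.08; adjusted p = 0.0384) and Lonp1 (0.44 ± 0.10; 0.0317), and the median log2 fold change was 0.02. Their summed level was 3351 to 3575 CPM in controls and 3470.0 to 3596 CPM in Rosa-Hes1, ranges that overlap, while the summed ranges of the 9 cycle genes (2694 to 3065 and 3619 to 3758 CPM) did not. The chaperones Hspd1 (means of 802 CPM in controls and 734 CPM in Rosa-Hes1) and Hspa9 (807 and 826 CPM) had the highest levels of the 12. A sum weighs genes by their level, and the overlap of the summed ranges depends on these chaperones. The difference between the lists was not tested. Both calls were lost, leaving 0 by edgeR, when any library other than Rosa-Hes1 replicate 2 was left out, with adjusted p-values of 0.0777 to 0.149 for Vdac1 and 0.0735 to 0.117 for Lonp1.

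**Figure D5:**
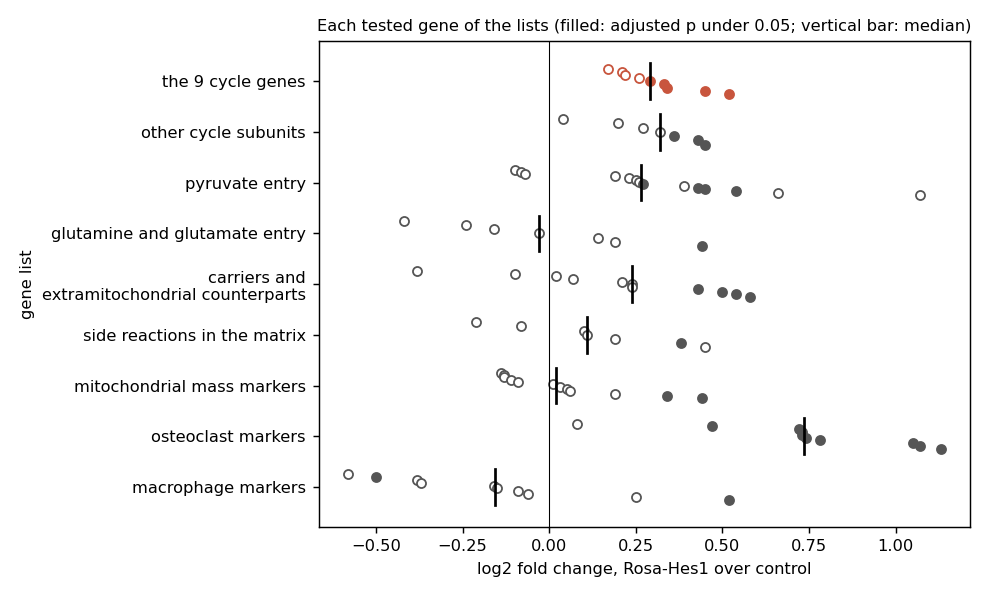
Log2 fold change of Rosa-Hes1 over control for every tested gene of each list; filled points have an adjusted p under 0.05 and the vertical bar is the list's median. The 9 cycle genes lie between 0.17 and 0.52 with a median of 0.29, the other mitochondrial genes (labelled mitochondrial mass markers) centre on 0.02, and the osteoclast markers centre on 0.73.

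Within each group the cycle genes tended to order the libraries alike. Control replicate 1 was the lowest control for 7 of the 9 genes and control replicate 2 the highest for 8. Sucla2 had the opposite order, and Idh3a was lowest in control replicate 3. Rosa-Hes1 replicate 2 was the lowest of its group for 6 genes and the highest for Idh3a and Ogdh. This order was not particular to the cycle genes. Summed osteoclast markers were 10755, 13810 and 12718 CPM in control replicates 1 to 3 and 19380, 17050 and 20015 CPM in Rosa-Hes1 replicates 1 to 3. The sums of the other cycle subunits and of pyruvate entry had the same lowest and highest controls and lowest Rosa-Hes1 library, unlike the remaining lists. The share of all genes with this order was not counted. The genes outside the 9 whose profile over the 6 libraries lay nearest to the summed level of the 9 were Snx8, Baiap2, Atp5d, Cryl1 and Map4k3, at root-mean-square distances of 0.0117, 0.0216, 0.0217, 0.0257 and 0.0272 on the log2 scale among the 9088 genes whose mean reached 10 CPM. Snx8, the nearest, read 119, 134 and 126 CPM in controls and 163, 159.8 and 166 CPM in Rosa-Hes1. Of the members themselves, Idh3b was nearest to the sum (0.0362) and Idh3a the farthest (0.111), so all 5 of these genes lay nearer than any member. Picking the nearest of 9088 genes over only 6 libraries favours small distances. Shared regulation was not tested.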

How the data were processed

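RNA-Seq was analysed in 6 libraries, 3 control and 3 Rosa-Hes1. Counts were deposited unnormalised, as whole numbers of reads for each Ensembl gene, which the authors made with Sickle trimming, HISAT2 2.1.0, SAMtools 1.9, removal of duplicates with Picard and HTSeq-count. The labels give the build as GRCm38, and the strand setting is not given in the sources used here. HTSeq's classes of reads outside genes, kept out of library sizes, took 17.4% to 18.1% of each library. Duplicate removal can lower the counts of abundant genes.

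Names, positions and exon lengths came from GENCODE M21. Genes with at least 10 counts over the libraries were fitted with edgeR 4.0.16 (TMM, robust glmQLFit, glmQLFTest, R 4.3.3). The SE is the log2 fold change divided by the square root of F. The labels call the libraries biological replicates. Replicate pairs of a group differed by 9.49 to 18.4 chi-square per degree of freedom. The members, lists and ratios were chosen with earlier results of these data known. Named were the 9 members, Hes1, 7 other subunits, the called genes of each list (the 4 smallest adjusted p where over 5 were called) and the 5 nearest profiles. Some items of the lists are not reported here. Alternatives were DESeq2 1.42.0 and its size factors, upper quartile scaling, filterByExpr, no filter, limma 3.58.1 voom with quality weights, a replicate block, leaving out each library, and the longest transcript as length.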

Additional observations from a re-analysis of the deposited data

How the results depend on the processing

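The log2 fold change of each of the 9 genes stayed above 0 in the 13 other ways of analysis. Mdh2 was called in all 13, Cs in 11, Ogdh in 8, Idh3b, Idh3g and Suclg1 in 7, Sucla2 in 1 (limma-voom), and Idh3a and Fh1 in 0. DESeq2 called 2169 genes in all and limma-voom 2294, against 1399, and leaving out a library gave 265 to 2646. Of the 9 genes, 1 to 6 were called with a library left out. The median of the 9 was 0.25 to 0.32 over those fits. With the replicate number as a block, 3 of the 9 (Cs, Ogdh and Mdh2) and 1050 genes in all were called. Idh3b and Idh3g then had adjusted p-values of 0.0541 and 0.0686 by edgeR, and Sdhb (0.0518), Dlat (0.0589), Gpt2 (0.0878), Me2 (0.0739), Vdac1 (0.0691) and Lonp1 (0.0525) were not called either. Pairing by number was not apparent. The correlations of same-numbered libraries, as deviations from their group means, were −0.088, −0.091 and 0.436, and not every library correlated best with its own number. The highest correlation was 0.515, between control replicate 1 and Rosa-Hes1 replicate 2. The lowest was −0.518, between control replicate 1 and Rosa-Hes1 replicate 3. With 3 libraries per group these correlations depend on each other and cannot exclude a pairing. With the longest transcript as length the range of levels was 8.5-fold. The cause of these changes was not tested, beyond the fewer libraries in a fit with 1 left out. Idh3a and Fh1 (log2 fold changes of 0.17 and 0.22) did not pass after adjustment in any of these analyses, which does not show that they were equal between groups.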
